A study of Mus musculus with 6 samples.

Results

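The genes described here encode the mouse translation initiation factors eIF1 to eIF6, their regulators, and the 2 MNK kinases. They were chosen as the protein-coding entries whose symbol begins with Eif and a digit from 1 to 6, without Eif2ak2, together with Mknk1 and Mknk2. Of 54532 gene entries per library, 22046 of them protein-coding, 56 fitted that choice. Levels are in FPKM, a read number divided by gene length and by library size. Testing was limited to a mean FPKM of 1 or more, which 54 members and 9943 genes in all had. The 2 members below it were Eif4ebp3, with 1 to 6 reads per library, and Eif4e1b, with 0 reads in all 5 libraries. The member just inside it, Eif3j2, had a mean of 1.03 FPKM, and the member just outside, Eif4ebp3, had 0.245 FPKM.

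Total RNA was sequenced from macrophages that had been derived from the bone marrow of C57BL/6 mice. The control group, siNC, was transfected with a negative-control small interfering RNA (siRNA), and the siCXCR4 group with an siRNA against Cxcr4, the receptor for the chemokine CXCL12. Both groups had received lipopolysaccharide (LPS), the outer-membrane glycolipid of Gram-negative bacteria that macrophages sense through TLR4, at 100 ng/ml for 12 hours. No library without LPS and none without siRNA was used here, so every comparison is between 2 transfected, LPS-treated groups. The labels name 3 samples per group, but the table of siNC replicate 3 gave the same reads as siNC replicate 2 for each of the 19072 genes that had any. The difference within that pair was below sampling noise, so it entered as 1 sample, which left 2 siNC and 3 siCXCR4 libraries. No label ties a replicate to its own animal or culture, so the p-values reflect the spread of these samples alone, and that spread could be technical. The siCXCR4 columns are headed mko in the deposited tables, an abbreviation that the sources used here do not explain, and the groups follow the labels.

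The libraries held 18890751 to 21780840 reads in genes. Cxcr4 itself stood at 41.3 and 42.1 FPKM in siNC and at 31.1, 36.2 and 32.7 FPKM in siCXCR4. Its groups did not overlap, with a log2 difference of -0.32 (SE 0.0704) and a limma adjusted p of 0.457. The Cxcr4 group means differed by -20.0%, and the adjusted p was 0.133 by edgeR and 0.0502 by DESeq2, so none of these tests called it. The summed level of 7 macrophage markers was 3891 to 4041 FPKM in siNC and 3774 to 4083 FPKM in siCXCR4, with none at 0. The summed level of 6 neutrophil markers, none of them at 0, was 73.5 to 76.3 FPKM in siNC and 52.7 to 62.3 FPKM in siCXCR4. The other 5 marker lists summed to at most 2.02 FPKM, and the dendritic cell marker Siglech was at 0 in every library. In bulk samples fewer cells of a type and less RNA per cell cannot be told apart.

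Translation of most messenger RNAs begins when eIF4E binds the methylated cap and joins eIF4G and the helicase eIF4A in the eIF4F complex. The scaffold and eIF3 then recruit the small ribosomal subunit, which carries the initiator tRNA on eIF2 and scans to the start codon under eIF1 and eIF1A. The 4E-BP proteins block eIF4E by occupying its eIF4G-binding surface until mTORC1 phosphorylates them. The kinases MNK1 and MNK2, which dock on eIF4G and are activated by the MAP kinases ERK and p38, phosphorylate eIF4E on a serine near its end. In macrophages LPS activates those MAP kinases, and eIF4E phosphorylation is known as a point of control over the translation of cytokine mRNAs.

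The codons of the eIF4E phosphorylation site and of the eIF4E-binding motif are printed below as background to the kinases and their cap-binding partners. They are coding sequence of GENCODE M21 transcripts on GRCm38, with capitals marking the serine codon 209 of Eif4e or the tyrosine and leucine codons of the eIF4E-binding motif. The Eif4e stretch lies in exon 8 of 8 at chr3:138555454-138555501 on the plus strand. The Eif4ebp1 stretch lies in exon 2 of 3 at chr8:27273328-27273369 (plus), and that of Eif4ebp2 in exon 2 of 3 at chr10:61435057-61435098 (minus). The Eif4g1 stretch lies in exon 13 of 33 at chr16:20681212-20681253 (plus), and that of Eif4g3 in exon 15 of 35 at chr4:138156641-138156682 (plus).
Eif4e: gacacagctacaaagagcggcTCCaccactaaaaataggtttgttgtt
Eif4ebp1: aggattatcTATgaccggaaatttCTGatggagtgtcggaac
Eif4ebp2: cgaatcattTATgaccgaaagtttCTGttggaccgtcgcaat
Eif4g1: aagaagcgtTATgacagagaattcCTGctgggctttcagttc
Eif4g3: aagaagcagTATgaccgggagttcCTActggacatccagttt

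Most members' mRNA levels were close in the 2 groups. The median log2 difference, siCXCR4 minus siNC on log2(FPKM + 1), was 0.0059 over the 54 members and 0.015 over all 9943 genes tested. By limma 30 of the 54 differences were above 0 and 24 below, while the balance turned by edgeR (23 above, 31 below), by DESeq2 (25 and 29) and with quantile normalization (26 and 28). In group means, 49 members lay within 10% of siNC, where 73.7% of all genes tested did. Another 3 lay between 10 and 20% away (18.6% of all genes), and 2 lay 20% or more away (7.71%), Mknk2 at 27.0% and Eif3j2 at -34.7% on 14 to 85 reads. The median half-width of a member's 95% interval was 0.142 on the log2 scale.

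No member passed an adjusted p of 0.05 by limma, and neither did any gene (0 of 9943, 0%). At an unadjusted p under 0.05 limma gave 1 member higher, Mknk2, and 1 lower, Eif4a2, where 5.8% of all genes tested were higher and 3.54% lower. The groups did not overlap in 10 members higher in siCXCR4 and in 4 lower, against 17.9% and 9.92% of all genes, so these shares lay near the background. By edgeR on the whole reads 0 members were called (3 of 12794 genes, 0.0234%), and at an unadjusted p under 0.05 1 member was higher and 3 lower (all genes 4.46% and 5.31%). Mknk2 was called by edgeR with a robust estimate (17 of 12794 genes, 0.133%), by DESeq2 (28 of 6924 genes, 0.404%) and by DESeq2 on the genes edgeR kept (33 of 10065 genes, 0.328%). The robust estimate and that last gene filter were settled on after the calls of several settings had been seen.

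**Figure D1:**
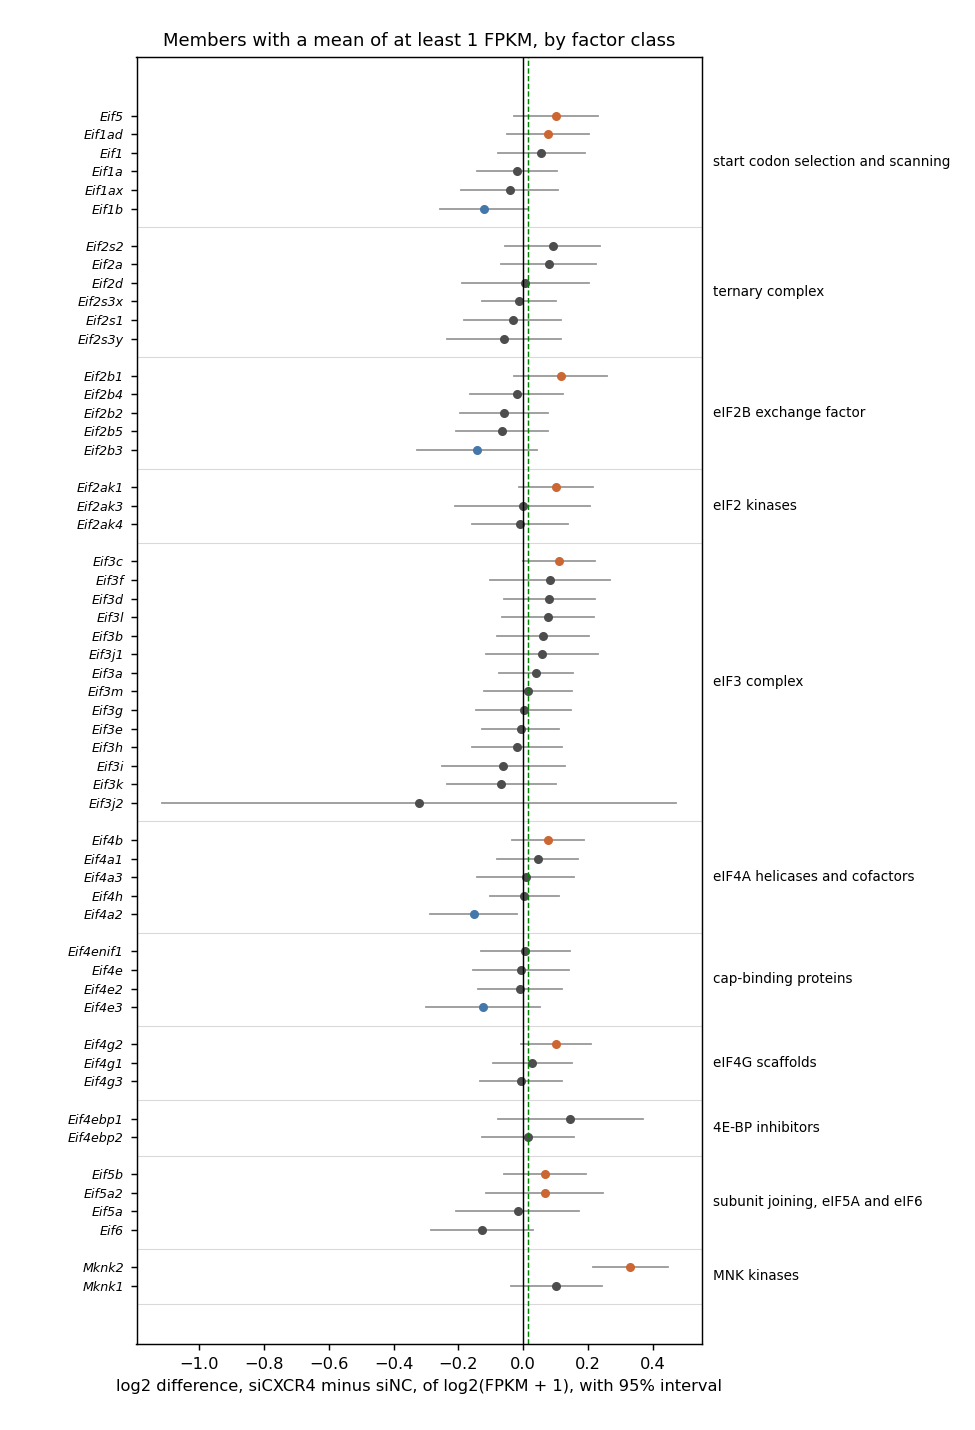
Log2 difference of each of the 54 members, siCXCR4 minus siNC on log2(FPKM + 1), with its 95% limma interval, grouped by factor class. Coloured points are members whose groups do not overlap (10 higher, 4 lower), the dashed line is the median of all genes tested (0.015), and Mknk2 at 0.33 lies farthest right.

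Mknk2 encodes MNK2, the MNK isoform with high basal activity, and lies at chr10:80665327-80678112 on the minus strand of GRCm38. Its level was 20.8 and 21.0 FPKM in the siNC libraries and 26.4, 25.9 and 27.2 FPKM in the siCXCR4 libraries, on 1609 to 2235 reads. All 3 siCXCR4 libraries lay above both siNC libraries, and the gap was wider than the spread within either group (20.9 ± 0.144 FPKM, SD, n = 2, against 26.5 ± 0.678 FPKM, SD, n = 3). The log2 difference was 0.33 (SE 0.0481, 95% interval 0.22 to 0.45), and Mknk2 ranked 6 of 9943 genes by p. By size it ranked lower, 315 by absolute log2 difference and 101 counted from the highest difference.

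The call depended on the test. The limma unadjusted p was 0.000287 and the adjusted p 0.389. The edgeR adjusted p was 0.0809, and 0.0412 with the robust estimate. The DESeq2 adjusted p was 0.00601, and 0.0122 on the genes edgeR kept. Over all 27 alternatives the log2 difference ran from 0.30 to 0.35 and the adjusted p from 0.00224 to 0.771. With the robust edgeR fit, leaving out a library gave adjusted p-values of 0.310 without siCXCR4 replicate 1, 0.00224 without siCXCR4 replicate 2, 0.245 without siCXCR4 replicate 3, 0.293 without siNC replicate 1 and 0.118 without siNC replicate 2. The robust fit without siCXCR4 replicate 2 called 312 of 12750 genes. The exact two-sided permutation test over the 5 libraries gave p = 0.1, the smallest it can give. The neutrophil marker sum, which was lower in all 3 siCXCR4 libraries, moved with this difference. So did the summed level of 4 dendritic cell markers, 0.242 to 0.310 FPKM in siNC and 0.405 to 0.462 FPKM in siCXCR4, and the share of each library's FPKM total outside the listed genes (2.80% and 2.15% in siNC, 0.00033%, 0.312% and 1.37% in siCXCR4). The dendritic cell sums lay near the floor, below the 1 FPKM that a gene needed for testing. The part of these quantities in the Mknk2 difference was not tested.

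Mknk1 encodes MNK1, the isoform whose activity depends more on upstream MAP kinases, at chr4:115839198-115879250 on the plus strand. It stood at 17.6 and 16.3 FPKM in siNC and at 18.6, 17.4 and 18.8 FPKM in siCXCR4. The groups overlapped, with siCXCR4 replicate 2 just under siNC replicate 1. The log2 difference was 0.10 (95% interval -0.04 to 0.24, limma adjusted p 0.617), so its interval holds 0 and the interval's upper end lies above the lower end of that of Mknk2. Without siNC replicate 2 the Mknk1 difference was 0.05. Of 6 ratios between members computed within libraries, Mknk2 over Mknk1 was 1.18 and 1.28 in siNC and 1.42, 1.49 and 1.45 in siCXCR4 (exact permutation p = 0.1, Benjamini-Hochberg adjusted p = 0.3 over the 6 ratios, which is also the lowest adjusted value among them). The ratio was higher in all 3 siCXCR4 libraries.

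**Figure D2:**
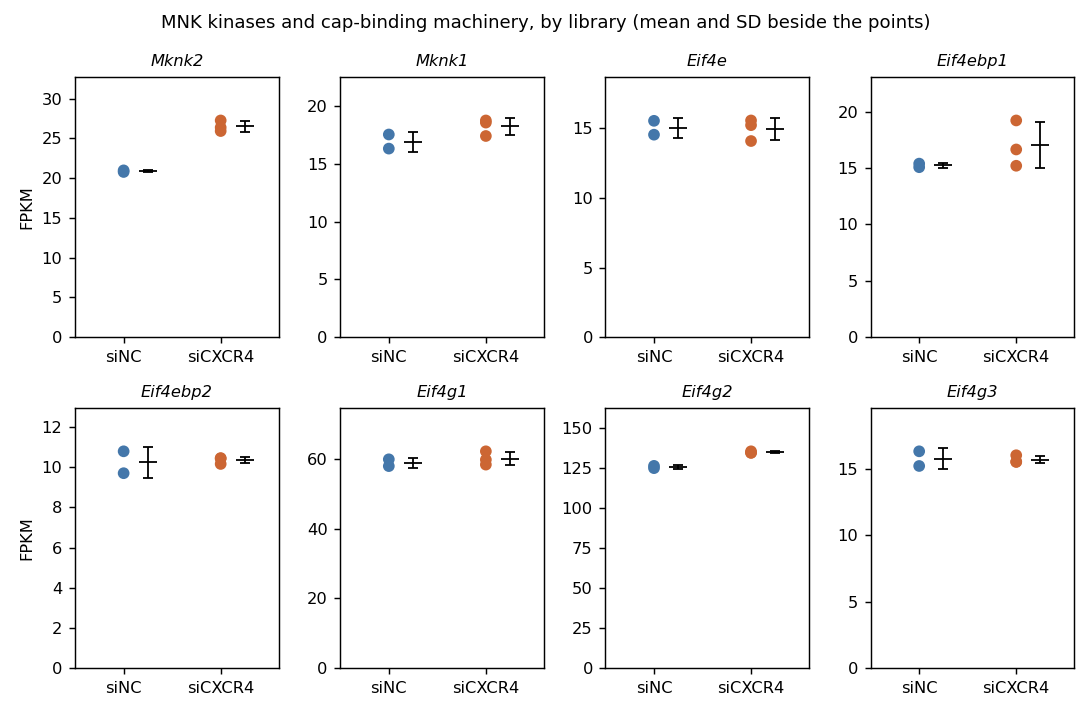
FPKM of the MNK kinases and the cap-binding genes in each library (points), with the mean and SD beside them for 2 siNC and 3 siCXCR4 libraries. Mknk2 (20.8 to 21.0 against 25.9 to 27.2 FPKM) and Eif4g2 show groups that do not overlap, while those of Mknk1, Eif4e, both 4E-BPs, Eif4g1 and Eif4g3 overlap.

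Eif4e, the substrate of both kinases and the cap-binding subunit of eIF4F, was at 14.6 and 15.6 FPKM in siNC and at 15.2, 15.6 and 14.1 FPKM in siCXCR4. The siCXCR4 libraries spanned the siNC values, and the log2 difference was -0.01 (95% interval -0.16 to 0.14), with a sign that changed between alternatives. Eif4e3, an unusual cap-binding relative, was the family member of lowest p, at 5.01 and 4.94 FPKM in siNC and 4.84, 4.53 and 4.09 FPKM in siCXCR4. Its groups did not overlap, with a log2 difference of -0.13 and a limma adjusted p of 0.619. Eif4e2, the repressive homologue, and Eif4enif1, the shuttling partner of eIF4E, differed by -0.01 and 0.0058.

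Of the 4E-BP inhibitors, Eif4ebp1 was at 15.1 and 15.4 FPKM in siNC and at 16.7, 19.2 and 15.2 FPKM in siCXCR4. The groups overlapped, since siCXCR4 replicate 3 lay between the siNC libraries, and siCXCR4 replicate 2 was the highest (log2 difference 0.15, limma adjusted p 0.658). The limma difference was 0.06 without siCXCR4 replicate 2 and 0.22 without siCXCR4 replicate 3. Eif4ebp2 was at 10.8 and 9.71 FPKM in siNC and at 10.2, 10.4 and 10.5 FPKM in siCXCR4. Its difference of 0.01 changed sign between alternatives. The ratio of Eif4ebp1 to Eif4e was 1.04 and 0.991 in siNC and 1.09, 1.24 and 1.08 in siCXCR4, with groups that did not overlap (exact permutation p = 0.2). The ratio of Eif4ebp2 to Eif4e overlapped (exact permutation p = 0.9).

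Among the eIF4G scaffolds, Eif4g2 was the most abundant and had the lowest p. It encodes DAP5, which lacks the eIF4E-binding motif of its relatives printed above. Eif4g2 stood at 126.2 and 124.8 FPKM in siNC and at 134.5, 135.3 and 134.3 FPKM in siCXCR4. Every siCXCR4 library was above both siNC libraries, by a log2 difference of 0.10 (SE 0.0457, limma adjusted p 0.549). Eif4g1 and Eif4g3, the scaffolds that bind eIF4E, differed by 0.03 and -0.0057 with overlapping groups. The ratio of Eif4g2 to Eif4g1 was 2.11 and 2.15 in siNC and 2.31, 2.18 and 2.25 in siCXCR4 (exact permutation p = 0.2).

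The eIF4A helicases unwind the region ahead of the start codon. Eif4a1, the main helicase of the family, was at 124.1 and 123.7 FPKM in siNC and at 129.2, 131.7 and 122.6 FPKM in siCXCR4, and its groups overlapped (log2 difference 0.04). A processed pseudogene, Eif4a-ps4, which shares sequence with it, was listed at 88.3 to 102.4 FPKM, and 28.4% of the 50-base windows of Eif4a1 also occur in other genes. Its level is therefore uncertain where reads were split between copies.

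Eif4a2, the paralogous helicase at chr16:23107444-23114136 (plus strand), was at 19.9 and 18.8 FPKM in siNC and at 18.1, 17.1 and 16.8 FPKM in siCXCR4. All 3 siCXCR4 libraries lay below both siNC libraries. The log2 difference was -0.15 (SE 0.0559), with a limma unadjusted p of 0.0305 and an adjusted p of 0.512. The ratio of Eif4a1 to Eif4a2 was 6.24 and 6.56 in siNC and 7.14, 7.70 and 7.31 in siCXCR4 (exact permutation p = 0.1). Of the cofactors, Eif4b was higher in all siCXCR4 libraries by 0.08, and Eif4h and the exon junction helicase Eif4a3 differed by 0.0029 and 0.0077.

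The factors for start codon selection split in direction, 3 above 0 and 3 below. Eif1, the fidelity factor, was the most abundant, at 110.9 and 104.0 FPKM in siNC and at 115.7, 111.0 and 108.3 FPKM in siCXCR4, with overlapping groups (log2 difference 0.06). Its paralogue Eif1b was at 15.0 and 14.1 FPKM in siNC and at 12.8, 13.8 and 13.3 FPKM in siCXCR4. Eif1b was lower in all 3 siCXCR4 libraries (log2 difference -0.12, limma adjusted p 0.561). Eif5, the GTPase-activating protein of eIF2, and Eif1ad, which is related to eIF1A, were higher in all siCXCR4 libraries by 0.10 and 0.08.

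The 6 genes of eIF2 and the alternative initiator tRNA factors all had overlapping groups. Eif2s2, the beta subunit and both the most abundant and the lowest in p, was at 23.2 and 23.5 FPKM in siNC and at 25.5, 26.1 and 23.3 FPKM in siCXCR4. Its siCXCR4 replicate 3 lay between the siNC libraries (log2 difference 0.09). The gamma subunit genes on the sex chromosomes, Eif2s3x and Eif2s3y, differed by -0.01 and -0.06, and the alpha subunit gene Eif2s1, whose product the stress kinases phosphorylate, by -0.03.

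Of the 5 subunits of eIF2B, which reloads eIF2 with GTP, 4 were below 0, with a class median of -0.06. That median was -0.0062 without siNC replicate 1 and -0.0218 without siCXCR4 replicate 3. Eif2b2 was the most abundant, at 21.2 and 21.4 FPKM in siNC and at 21.3, 20.6 and 19.3 FPKM in siCXCR4, and its groups overlapped. Eif2b1 had the lowest p and the opposite sign, at 9.41 and 8.71 FPKM in siNC and at 10.3, 9.87 and 9.51 FPKM in siCXCR4 (log2 difference 0.12, limma adjusted p 0.594). Eif2b3, a catalytic-arm subunit, was lower in all siCXCR4 libraries by 0.14 (limma) on 164 to 222 reads. At its mean of 1.35 FPKM the 1 added before the logarithm shrinks that value. The Eif2b3 group means differed by -15.7%, and the edgeR log2 difference was -0.27. No eIF2B difference passed the limma test, and by edgeR Eif2b3 had an unadjusted p of 0.0405.

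Of the kinases that phosphorylate eIF2 and were members, Eif2ak1 encodes the haem-regulated inhibitor HRI. It was at 15.1 and 15.0 FPKM in siNC and at 16.2, 15.9 and 16.5 FPKM in siCXCR4. The groups did not overlap (log2 difference 0.10, limma adjusted p 0.561). Eif2ak3, which encodes the endoplasmic reticulum kinase PERK, and Eif2ak4, which encodes the amino acid sensor GCN2, differed by -0.0021 and -0.0090.

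The eIF3 complex, the largest initiation factor, had a class median of 0.03 over 14 genes by limma, 9 of them above 0. By edgeR the split was 7 and 7 and the median 0.0094. Without 1 library the limma median ran from -0.0018 (without siNC replicate 2) to 0.06 (without siNC replicate 1), and it was 0.01 without siCXCR4 replicate 1 and 0.05 without siCXCR4 replicate 3. Eif3c, a core subunit, was the most abundant and the lowest in p. Eif3c was at 98.6 and 100.2 FPKM in siNC and at 109.4, 105.9 and 107.0 FPKM in siCXCR4. It was the only eIF3 gene whose groups did not overlap (log2 difference 0.11, SE 0.0468, limma adjusted p 0.535). Eif3j2 had the widest interval of any member, -1.11 to 0.47, and 91.8% of its 50-base windows also occur in other genes, chiefly its near-copy Eif3j1, so its level is uncertain.

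The last class holds subunit joining, eIF5A and eIF6. Eif5a, the hypusine-containing elongation and initiation factor, was the most abundant of all members, at 164.7 and 154.6 FPKM in siNC and at 161.8, 168.9 and 143.4 FPKM in siCXCR4. The siCXCR4 libraries spanned the siNC values, and the difference of -0.02 changed sign between alternatives. Eif6, which keeps the large subunit from joining too early, was at 57.1 and 54.8 FPKM in siNC and at 49.8, 55.2 and 48.6 FPKM in siCXCR4. Its groups overlapped through siCXCR4 replicate 2 (log2 difference -0.13, limma adjusted p 0.594), and by edgeR its unadjusted p was 0.0416. Eif5b, the joining GTPase, and Eif5a2 were higher in all siCXCR4 libraries by 0.07 each (edgeR 0.054 and 0.099), but the groups nearly touched. The highest siNC and lowest siCXCR4 values were 13.20 and 13.22 FPKM for Eif5b. For Eif5a2 they were 1.342 and 1.344 FPKM. The limma adjusted p-values were 0.701 and 0.795.

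**Figure D3:**
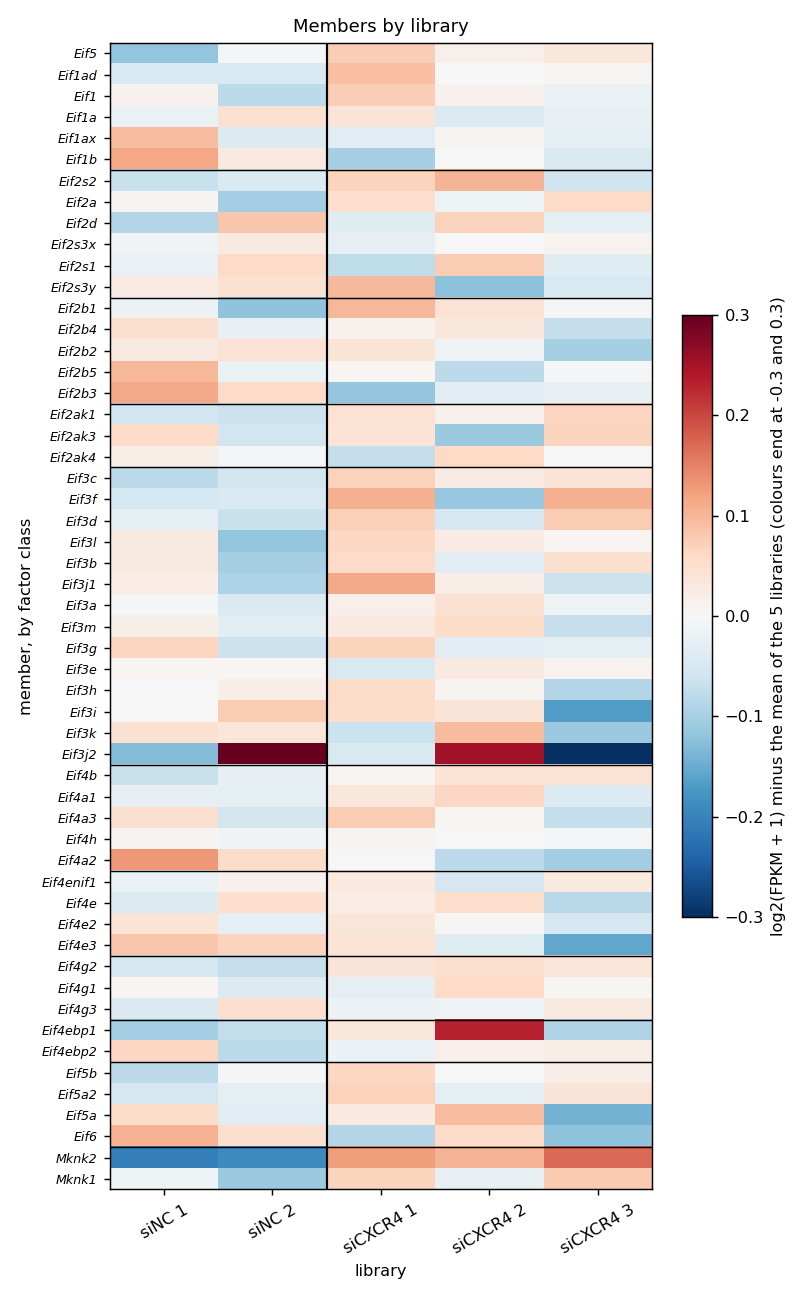
Each member's log2(FPKM + 1) minus its mean over the 5 libraries, with classes separated by lines and the colour scale ending at -0.3 and 0.3. Mknk2 is low in both siNC libraries and high in all 3 siCXCR4 libraries, and in siCXCR4 replicate 1 39 of 54 members lie above their mean, against 23 in siCXCR4 replicate 3.

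The direction of members as a set also varied among libraries of 1 group. Of 54 members, 28 and 19 lay above their 5-library mean in siNC replicates 1 and 2, and 39, 34 and 23 in siCXCR4 replicates 1, 2 and 3. The count in siCXCR4 replicate 3 lay between those of the siNC libraries. Members took 0.755% and 0.742% of the reads in siNC and 0.761%, 0.762% and 0.752% in siCXCR4, so these shares overlapped.

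Genes around the initiation factors were read from lists chosen by function, with earlier results of these data known. The counts and medians of these lists are therefore descriptions and not tests of a set. The list of eIF2 phosphatase subunits and stress outputs had all 5 genes higher in siCXCR4 with groups that did not overlap (17.9% of all genes tested) and a median log2 difference of 0.19 (all genes 0.015). At an unadjusted limma p under 0.05, 3 genes were higher (5.8% of all genes), and limma, edgeR and DESeq2 on all 5 libraries called 0 of them. Ppp1r15a, which encodes the inducible subunit GADD34 that dephosphorylates eIF2, was at 32.0 and 31.6 FPKM in siNC and at 39.1, 37.2 and 38.9 FPKM in siCXCR4. All siCXCR4 libraries lay above both siNC libraries (log2 difference 0.27, SE 0.0483, limma adjusted p 0.389). Of 27 alternatives, 2 called Ppp1r15a, both without siCXCR4 replicate 2, with edgeR adjusted p-values of 0.0215 and, with the robust estimate, 0.0127. Those 2 fits called 263 and 312 of 12750 genes, against 3 and 17 of 12794 with all 5 libraries.

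Trib3, a pseudokinase gene induced by ATF4 and CHOP, was at 21.7 and 26.0 FPKM in siNC and at 30.9, 29.3 and 29.7 FPKM in siCXCR4 (log2 difference 0.32, limma adjusted p 0.457). The Trib3 difference was 0.20 without siNC replicate 1 and 0.45 without siNC replicate 2. Without siCXCR4 replicate 2 edgeR called Trib3 (adjusted p 0.0290, robust 0.0181). Those fits called 263 and, with the robust estimate, 312 of 12750 genes.

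Atf4, the transcription factor of the integrated stress response, was the most abundant, at 172.4 and 175.8 FPKM in siNC and at 189.1, 183.3 and 180.7 FPKM in siCXCR4. Its difference of 0.08 had a limma adjusted p of 0.634. ATF4 is controlled mostly through translation, which mRNA levels do not measure, and no phosphorylation of eIF2 or eIF4E was measured here. The neutrophil marker sum and the dendritic cell marker sum, the latter near the floor, moved with these differences too, and their part in them was not tested.

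**Figure D4:**
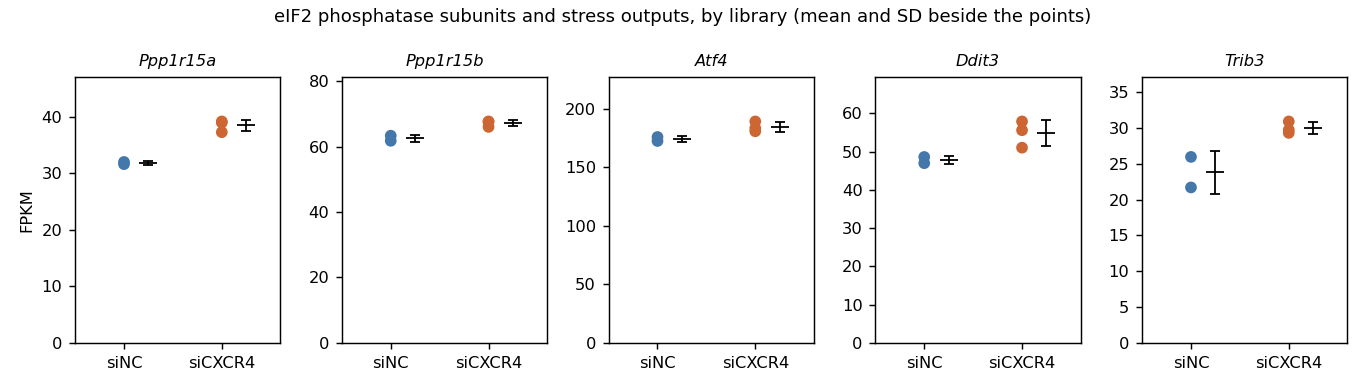
FPKM of the 5 genes of the eIF2 phosphatase and stress list in each library (points), with the mean and SD for 2 siNC and 3 siCXCR4 libraries. In each panel all siCXCR4 libraries lie above both siNC libraries, and the SD of Trib3 in siNC is the widest relative to its mean.

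The mTORC1 list had 13 genes tested, of which 2 were higher at an unadjusted limma p under 0.05 (5.8% of all genes tested) and none lower (3.54%), with a median of 0.01. Sesn2, a leucine-sensing inhibitor of mTORC1 and a stress-response gene, was at 33.1 and 32.7 FPKM in siNC and at 40.2, 38.1 and 38.2 FPKM in siCXCR4 (log2 difference 0.23, limma adjusted p 0.438). Robust edgeR without siCXCR4 replicate 2 was the only alternative of 27 that called Sesn2 (adjusted p 0.0402). That fit called 312 of 12750 genes. Rragc, a Rag GTPase gene and the most abundant of the list, differed by 0.15. Of the 9 MAP kinase genes upstream of MNK, 6 were tested and none passed an unadjusted p of 0.05 by limma or edgeR. Map2k1, which encodes the ERK activator MEK1, differed by 0.09 and Mapk14, which encodes p38 alpha, by -0.09.

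Of 13 accessory factors, 12 were tested, with 1 lower (3.54% of all genes tested) and none higher (5.8%) at an unadjusted limma p under 0.05. That gene was Pdcd4, which encodes an eIF4A inhibitor, at 1.26 and 1.47 FPKM in siNC and at 0.988, 1.07 and 0.981 FPKM in siCXCR4 on 48 to 74 reads. Its limma log2 difference was -0.23 (limma adjusted p 0.509), a value that the 1 added before the logarithm shrinks at this level. The Pdcd4 group means differed by -25.7%, and the edgeR log2 difference was -0.44. Pabpc1, the main poly(A)-binding protein gene, differed by 0.12.

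Of 8 elongation factor genes 7 were tested. At an unadjusted limma p under 0.05, 1 was higher (5.8% of all genes), Eefsec, the selenocysteine elongation factor gene (0.20), and none lower. By edgeR at that p Eefsec was higher (all genes 4.46%) and 2 genes were lower (5.31%), Eef1e1 (unadjusted p 0.0150) and Eef1b2 (0.0385). Eef1e1, which encodes a scaffold protein of the aminoacyl-tRNA synthetase complex, was at 7.67 and 6.62 FPKM in siNC and at 5.12, 6.97 and 4.73 FPKM in siCXCR4. Its groups overlapped through siCXCR4 replicate 2 (limma log2 difference -0.31, adjusted p 0.577). Without that library edgeR called Eef1e1 (log2 difference -0.55, adjusted p 0.00513, robust 0.00272). Those fits called 263 and, with the robust estimate, 312 of 12750 genes. Eef1a1, the most abundant, differed by 0.01, with a sign that changed between alternatives. The 10 translation-factor genes whose mRNAs carry a terminal oligopyrimidine tract, through which mTORC1 controls translation, had a median of 0.02. By limma 0 of them passed an unadjusted p of 0.05, and by edgeR 1 did, Eef1b2, which was lower.

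Promoters were compared for the member that stood apart and its paralogue. RefSeq promoter sequences on GRCm38.p6, from 250 bases before to 50 after the start, matched 44 of the 56 members. The 250 bases before the start are printed for Mknk2 (chr10:80676294-80676543, minus strand) and for an Mknk1 start (chr4:115838948-115839197, plus strand). The Mknk2 window lies inside the GENCODE gene, whose first base on the minus strand is 80678112. The printed Mknk1 start is the first base of its GENCODE gene, so the starts are not alike. Capitals mark the GC box, the TATA box and the E-box on either strand.
Mknk2: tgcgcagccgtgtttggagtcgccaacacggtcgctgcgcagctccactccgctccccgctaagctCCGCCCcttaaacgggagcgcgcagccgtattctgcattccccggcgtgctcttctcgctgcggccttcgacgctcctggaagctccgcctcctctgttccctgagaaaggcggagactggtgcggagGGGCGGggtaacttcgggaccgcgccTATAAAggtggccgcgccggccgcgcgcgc
Mknk1: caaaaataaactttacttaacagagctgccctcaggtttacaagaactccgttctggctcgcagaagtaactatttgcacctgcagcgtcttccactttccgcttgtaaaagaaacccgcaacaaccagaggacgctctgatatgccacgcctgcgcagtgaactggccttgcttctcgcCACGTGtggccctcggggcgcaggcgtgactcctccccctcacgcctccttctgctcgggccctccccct

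In these windows Mknk2 held 2 GC boxes and a TATA box, and Mknk1 held an E-box and neither of the others. In all, 8 motifs were searched on both strands of the 300-base windows, with CCAAT box matches able to overlap others. The GC box (GGGCGG) occurred in 77.3% of the 44 members, 69.7% of genes tested and 38.2% of all promoters. The E-box (CACGTG) occurred in 25% of members, 12.7% of genes tested and 8.09% of all promoters, and the ETS motif (CCGGAAG) in 36.4%, 23.1% and 9.93%. The TATA box (TATAAA) occurred in 11.4%, 8.26% and 15.7%, and the YY1 motif (AAGATGGC) in 11.4%, 6.2% and 3.19%. The CCAAT box (CCAAT) occurred in 34.1%, 42.3% and 41.1%, the CHOP-ATF composite (TGATGNAA) in 2.27%, 2.77% and 4.51%, and the CRE (TGACGTCA) in 0%, 3.68% and 2.03%. A match is a description of letters and says nothing of binding in these cells.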

How the data were processed

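The authors deposited, for 5 samples, normalized values per gene, read here as FPKM because value times length came out in whole reads (tolerance 0.05) in each library; the headers name no unit, and RPKM is equally possible. For siNC replicate 3 the deposited values are whole read counts, equal to replicate 2. The submitters' processing notes name mm9, but 53 of 56 members had the GRCm38 position in GENCODE M21, whose positions are used. For the aligner, the counting tool and the strand setting, nothing is given in the sources used here.

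The highest-mean row per symbol was kept. The test was limma 3.58.1 (R 4.3.3, trend and robust) on log2(FPKM + 1), two-sided, Benjamini-Hochberg adjusted over 9943 genes. The added 1 shrinks the log2 differences of genes near 1 FPKM. Whole reads were tested with edgeR 4.0.16 and DESeq2 1.42.0. The limma, default edgeR and unfiltered DESeq2 fits were also run on simulated data, with planted changes larger than that of Mknk2. The robust edgeR and filtered DESeq2 fits were not. The plan did not fix edgeR's robust option or a gene filter for DESeq2. Default edgeR and unfiltered DESeq2 were run first. The robust fit was adopted after 4 combinations of robust options were compared with their calls in view, and the filtered DESeq2 fit after the unfiltered one, so both of each are given. Members and lists were chosen with earlier results of these data known. Named genes are the MNK and 4E genes, each class's most abundant and lowest-p members and, per functional list, up to 3 genes. Others were named after their values were seen, some for non-overlapping groups and some with overlapping groups. Read ranges are the lowest and highest values over the 5 libraries, so they include differences in depth and between groups. Without molecular identifiers reads are not separate molecules.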

Additional observations from a re-analysis of the deposited data

How the results depend on the processing

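With 2 against 3 libraries, the median half-width of a member's limma interval, without adjustment for the number of genes, was 0.14 on the log2 scale. After adjustment limma resolved no member's difference, including that of Mknk2 at 0.33 (limma adjusted p 0.389). Genes called numbered 0 by limma, 3 by edgeR, 17 by edgeR with a robust estimate, 28 by DESeq2, 33 by DESeq2 on filtered genes, 6 with the repeated table as a library, and 0 to 312 with 1 library left out. The count of 312 came without siCXCR4 replicate 2 in the robust edgeR fit, where limma gave 2 and default edgeR 263. A chi-square per gene on read counts, larger for less similar libraries, was 3.23 between siCXCR4 replicate 2 and siNC replicate 1. For siCXCR4 replicate 2 it was 4.7 and 5.79 against siCXCR4 replicates 1 and 3. Between siNC replicates 1 and 2 it was 3.65. By this measure the libraries did not separate fully by group. At an unadjusted p under 0.05 limma gave 929 genes and edgeR 1249. Members called numbered 0 by limma and edgeR and 1, Mknk2, by robust edgeR, by both DESeq2 fits and with the repeated table (adjusted p 0.0483), and 0 to 1 with 1 library left out. The robust edgeR and filtered DESeq2 fits and the edgeR fits without each library were added after seeing the data. The members' median ran from -0.0115 to 0.0338 with a library left out, the highest without siNC replicate 1 in the limma fit. The cause was not tested.

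Signs changed where differences were near 0. Eif4ebp2 was -0.0024 by filtered DESeq2 and -0.0050 by edgeR, and Eef1a1 -0.0037 and -0.0062. With a library left out, differences ran from -0.0736 to 0.0370 for Eif4e, -0.0754 to 0.0846 for Eif4ebp2, -0.0821 to 0.0505 for Eif5a, -0.0421 to 0.0481 for Eef1a1 and -0.0039 to 0.102 for Eif1. The replicate block gave 0 genes called, 0.31 for Mknk2 (adjusted p 0.748), 0.0322 for Eif4e and 0.0505 for Eif5a. Same-numbered libraries did not deviate together (correlations -0.04 and -0.111), so the numbers were not taken to pair them.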

Other observations

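Among entries that share the name pattern but are not protein-coding, 9 processed pseudogenes and 1 long noncoding RNA gene were listed. Eif4a-ps4 was the exception in level, at 91.3 and 93.7 FPKM in siNC and at 92.5, 102.4 and 88.3 FPKM in siCXCR4 on 2059 to 2454 reads. Of the other 9 entries, each had at most 8 reads in any library. In the genome, 6 members overlap another gene that has at least 10% of their reads, namely Eif4ebp3, Eif4enif1, Eif2b4, Eif3j1, Eif2a and Eif2d, and reads of the pair could not be told apart where they overlap because the strand setting is unknown. For Mknk1 and Mknk2, none of the 50-base windows occurred in another gene. Of 56 members, 12 had at least 10% of their windows in other genes, so their levels carry that uncertainty. They were Eif3j2, Eif4ebp3, Eif3j1, Eif2s3x, Eif4a1, Eif3h, Eif1, Eif3m, Eif4a3, Eif4e3, Eif4a2 and Eif2s2.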
